A study of Mus musculus with 10 samples.

Results

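Genes of the major histocompatibility complex (MHC) and of antigen processing were examined in the livers of mice that overexpressed Phf2, a histone demethylase, or the fluorescent protein GFP. Members were the genes whose symbol starts with H2-, together with B2m, Cd74, Ciita, Nlrc5, Tap1, Tap2, Tapbp, Tapbpl, Psmb8, Psmb9, Psmb10, Erap1 and Ctss, wherever the array annotation gave a feature that 1 symbol. This gave 42 genes of the 19938 measured. By role, 29 of them belong to the class I pathway, 11 to the class II pathway and 2 to neither. All mice were male C57BL/6J animals of 8 weeks that received an adenovirus through the tail vein. The virus encoded Phf2 in 5 mice (Phf2 livers) and GFP in 5 control mice (GFP livers), and the fed animals were studied 3 weeks later. Each liver was hybridized to 1 Affymetrix Gene ST array, and the labels call the mice of a group biological replicates. The control mice thus also carried an adenovirus, and no source used here states which promoter drove the transgenes.

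MHC molecules display peptides at the cell surface for T cells to read. Class I molecules pair a heavy chain with beta2-microglobulin and carry peptides cut in the cytosol by the proteasome, which the Tap transporter pumps into the endoplasmic reticulum, and nearly all nucleated cells make them, hepatocytes included. Class II molecules pair an alpha with a beta chain and carry peptides of endocytosed proteins. Their expression is largely confined to professional antigen-presenting cells such as dendritic cells, B cells and macrophages, unless interferon gamma induces them elsewhere. The transactivator Ciita drives class II genes and its relative Nlrc5 drives class I genes, both through a conserved promoter module that ends in an inverted CCAAT box.

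Values are the deposited log2 expression values, which ran from 2.04 to 13.48, and array medians lay between 5.06 and 5.18. A gene is called dim here when its mean over the 10 arrays was below 5.12, the median of all features. Hepatocyte markers were high in every liver, with a mean over 11 genes of 11.94 to 12.07 on GFP arrays and 11.60 to 11.94 on Phf2 arrays. The feature of Phf2 itself measured 6.45 ± 0.11 (SD, n = 5) in GFP and 6.39 ± 0.12 (n = 5) in Phf2 livers (limma adjusted p = 0.751), so that it gave no check of the group labels, which are used as written. Pancreatic acinar transcripts varied over the livers of both groups, with a mean over 9 genes between 5.98 and 12.23, highest in GFP 1. GFP 1 was also the GFP array with the lowest mean over the class II members and GFP 3 the one with the highest. Many counts are therefore also given without either array, and a count given alone is not thereby stable.

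The class II genes that were not dim were higher in Phf2 livers. Of the 11 class II members, 6 passed an adjusted p of 0.05 (54.5%) and all 6 were higher in Phf2 livers, where 5.43% of all 19938 genes were called higher. They were the invariant chain Cd74, the classical chains H2-Ab1, H2-Eb1 and H2-Aa, the peptide exchange factor H2-DMa and the protease Ctss. The other 5 were dim and were not called. No class II member was called lower, against 4.24% of all genes. H2-Ea had an unadjusted p under 0.05 in that direction, and it was called lower by the methods' t-test. In whole liver, more cells that carry a transcript and more transcript per cell cannot be told apart.

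The promoters of class II genes are shown here because a pair of short motifs recurred in them, in genes that were called and in genes that were not. Windows of 250 bases before the annotated start were taken from RefSeq (assembly GRCm38.p6), and 30 of the 42 members had one that was searched. The sequences give the 180 bases nearest the start, 5′ to 3′ on the gene's strand. Capitals mark CCAAT on either strand (read as ATTGG on the other), GAAA followed after any 2 bases by a further GAAA on either strand, and GCAAC followed on the same strand by GATTGG. H2-Aa and H2-Eb1 were called, H2-Eb2 and H2-Ob were not, and B2m, the class I light chain, is shown for contrast.
H2-Aa (chr17:34287824-34288003, minus strand): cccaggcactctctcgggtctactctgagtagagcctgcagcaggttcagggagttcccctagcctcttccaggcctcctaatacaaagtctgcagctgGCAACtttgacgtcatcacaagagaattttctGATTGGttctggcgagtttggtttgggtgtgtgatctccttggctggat
H2-Eb1 (chr17:34305687-34305866, plus strand): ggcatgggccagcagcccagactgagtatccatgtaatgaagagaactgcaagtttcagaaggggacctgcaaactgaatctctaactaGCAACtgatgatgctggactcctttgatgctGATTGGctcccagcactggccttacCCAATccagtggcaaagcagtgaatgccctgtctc
H2-Eb2 (chr17:34325495-34325674, plus strand): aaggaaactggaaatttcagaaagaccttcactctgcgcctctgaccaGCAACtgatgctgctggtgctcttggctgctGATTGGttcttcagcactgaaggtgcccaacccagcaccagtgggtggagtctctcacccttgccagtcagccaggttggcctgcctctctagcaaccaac
H2-Ob (chr17:34238725-34238904, plus strand): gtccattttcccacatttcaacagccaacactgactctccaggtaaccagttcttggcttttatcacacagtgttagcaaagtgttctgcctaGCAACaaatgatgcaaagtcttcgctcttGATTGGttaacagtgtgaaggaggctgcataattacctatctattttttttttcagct
B2m (chr2:122147507-122147686, plus strand): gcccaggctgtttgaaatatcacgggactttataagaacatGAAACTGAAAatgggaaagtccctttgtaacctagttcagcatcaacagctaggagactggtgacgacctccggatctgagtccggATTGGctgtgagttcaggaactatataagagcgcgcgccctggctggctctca

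In these windows GCAAC and GATTGG started 32 bases apart in H2-Aa, 31 in H2-Eb1, 31 in H2-Eb2 and 29 in H2-Ob. The pair, at a distance of 20 to 40 bases on either strand, was in 0.326% of all 32851 promoter windows. It was in the windows of 5 of 7 class II members (H2-Aa, H2-Eb1, H2-Eb2, H2-Oa and H2-Ob) and 0 of 22 class I members. The letters of the pair were written down after the windows of H2-Aa and H2-Eb1 had been read, and GATTGG contains the complement of CCAAT, so these counts are a description only. CCAAT alone was in 33.8% of all windows, in 17 of 22 class I and in 6 of 7 class II members. The paired GAAA, a core of elements that respond to interferon, was in 2.98% of all windows and among the members in those of B2m and Ctss. TTCNNNGAA, a core of sites for Stat proteins, was in 7.02% of all windows and in those of H2-M11, H2-M3 and Psmb8. Of the 5 genes with the pair, H2-Aa and H2-Eb1 were called and H2-Eb2, H2-Oa and H2-Ob, all dim, were not. The 2 class II members whose searched window lacked the pair, H2-DMa and Ctss, were both called. Among class II members with a searched window, the pair was thus in 2 of 4 called and 3 of 3 uncalled ones. Cd74 and H2-Ab1, both called, and H2-Ea and Ciita, not called, had no window that was searched, so these counts leave them out. Only the exact letters were searched, and a window without them may hold a variant.

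The classical class II chains form the peptide-binding dimers themselves. H2-Aa and H2-Ab1 encode the alpha and beta chain of I-A, the only classical class II molecule that C57BL/6 mice display. H2-Aa measured 7.64, 8.33, 8.98, 8.30 and 8.34 on GFP arrays 1 to 5 and 9.06, 9.41, 9.47, 9.52 and 9.11 on Phf2 arrays 1 to 5. Every Phf2 liver lay above every GFP liver, by little in the case of GFP 3. The difference was 1.00 on the log2 scale (SE 0.19, 1.99-fold, limma adjusted p = 0.00614). H2-Ab1 measured 7.75, 8.76, 9.54, 8.59 and 8.68 in GFP livers and 9.51, 9.81, 10.01, 9.95 and 9.57 in Phf2 livers. Its groups overlapped through GFP 3 alone, which lay just above the lowest Phf2 liver. It was higher by 1.10 (SE 0.25, 2.15-fold, limma adjusted p = 0.0142).

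H2-Eb1, the beta chain of I-E, measured 7.00, 7.31, 7.97, 7.30 and 7.45 in GFP livers and 8.26, 8.59, 8.67, 8.68 and 8.13 in Phf2 livers. The groups were apart, and H2-Eb1 had the smallest p of all members, with a difference of 1.06 (SE 0.17, 2.08-fold, limma adjusted p = 0.00161). Its partner H2-Ea, the alpha chain of I-E, is a transcribed pseudogene in the RefSeq annotation, and the C57BL/6 strain makes no I-E alpha chain. H2-Ea measured 3.48, 3.46, 3.42, 3.47 and 3.52 in GFP livers and 3.26, 3.32, 3.29, 3.27 and 3.41 in Phf2 livers, all far down the range of the array. It was the 1 class II member whose groups were apart in the other direction, with a difference of -0.16 (SE 0.05, limma adjusted p = 0.0915). H2-Eb2, a further beta chain gene, measured 4.49, 4.60, 4.44, 4.51 and 4.50 in GFP livers and 4.45, 4.83, 4.38, 4.39 and 4.41 in Phf2 livers. Its difference of -0.02 (SE 0.09, limma adjusted p = 0.946) was within the spread of either group.

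The invariant chain Cd74 fills the groove of new class II molecules and guides them to the endosome. Cd74 measured 6.43, 7.22, 8.19, 7.29 and 7.77 in GFP livers and 8.38, 8.75, 8.99, 8.79 and 8.34 in Phf2 livers. The groups did not overlap, although the GFP livers alone spread more widely than the Phf2 livers. Cd74 had the largest difference of the 42 members, 1.27 (SE 0.26, 2.41-fold, limma adjusted p = 0.00898). Cathepsin S, encoded by Ctss, cuts the invariant chain away. Ctss measured 9.40, 9.65, 10.29, 9.85 and 10.07 in GFP livers and 10.26, 10.42, 10.48, 10.57 and 10.12 in Phf2 livers. GFP 3 lay above both of the lowest Phf2 livers, and the difference was 0.52 (SE 0.15, 1.43-fold, limma adjusted p = 0.0479). Ctss was past the threshold in 3 of 10 fits that each left out 1 array (adjusted p 0.0128 to 0.123).

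H2-DMa encodes a chain of H2-DM, which swaps the last piece of the invariant chain for a peptide. It measured 5.99, 6.22, 6.96, 6.22 and 6.30 in GFP livers and 6.86, 7.24, 7.42, 7.36 and 6.85 in Phf2 livers. Again GFP 3 was the only GFP liver to reach the Phf2 livers, and the difference was 0.81 (SE 0.17, 1.75-fold, limma adjusted p = 0.0106). H2-Oa and H2-Ob encode H2-DO, an inhibitor of H2-DM found mainly in B cells. Both were dim, with differences of 0.30 (SE 0.10, limma adjusted p = 0.0896) for H2-Oa and 0.23 (SE 0.14, limma adjusted p = 0.405) for H2-Ob, and 1 liver, Phf2 4, gave the highest value of H2-Ob at 5.43.

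Ciita, the transactivator of the class II genes, was dim as well. It measured 4.75, 5.19, 5.11, 4.95 and 4.89 in GFP livers and 5.14, 5.21, 5.15, 5.06 and 5.13 in Phf2 livers. The Phf2 livers lay around the upper end of the GFP range, and the difference of 0.16 (SE 0.08, limma adjusted p = 0.287) did not pass.

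**Figure D1:**
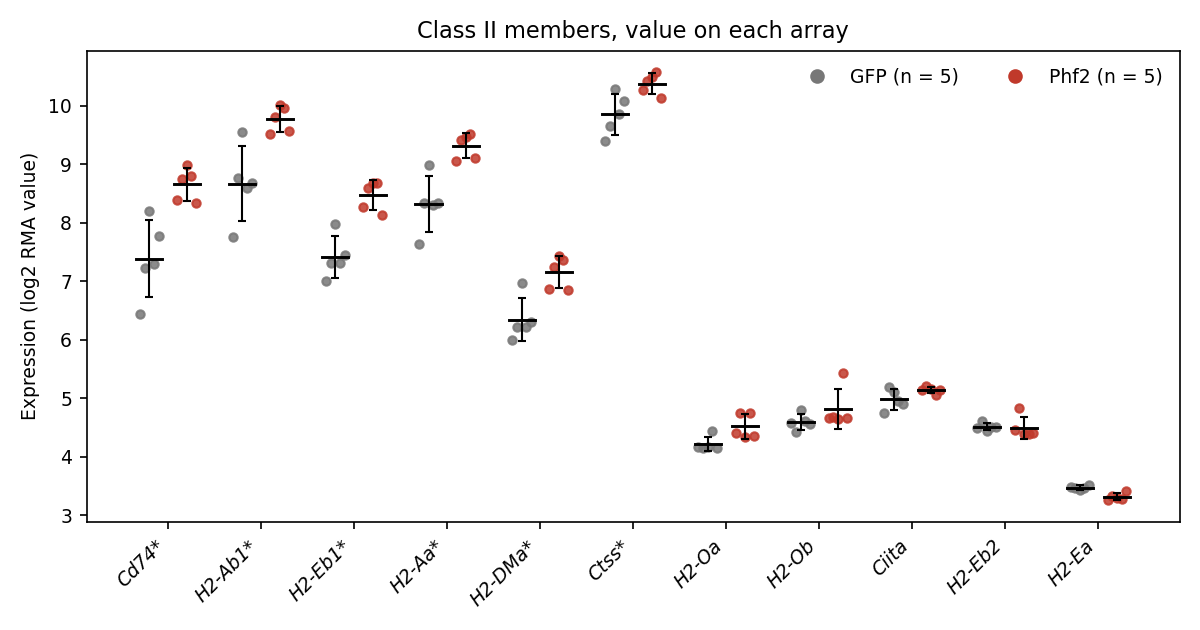
Expression of the 11 class II members (log2 value, y axis) on each array, with 5 GFP livers in grey and 5 Phf2 livers in red. Bars give the mean and SD, and an asterisk marks the 6 members with an adjusted p under 0.05; the 5 without one all lie low on the axis, at group means of 5.14 or less.

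The called class II members varied together among the GFP livers. GFP 3 was the highest and GFP 1 the lowest GFP array for 6 of 6, and their median SD was 0.42 in GFP against 0.24 in Phf2 livers. With the methods' t-test, which takes the spread of each gene alone, 2 of these 6 were called (H2-Aa and H2-Eb1), and Cd74 (adjusted p = 0.0571), H2-Ab1 (0.0738), H2-DMa (0.0583) and Ctss (0.136) were not. In the limma fits that left out each array in turn, H2-Aa, H2-Ab1, H2-Eb1, Cd74 and H2-DMa were called in 10 of 10. With both GFP 1 and GFP 3 left out, all 6 were called.

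Among class I genes few differences passed the test. Of the 29 class I members, 3 were called higher (10.3%, beside 5.43% of all genes) and 0 lower, and their median log2 difference was -0.04, beside -0.015 for all genes. Another 3 had an unadjusted p under 0.05 in the lower direction, and the methods' t-test called 2 members. The median over the class II members was 0.52. Of the 29 class I members 12 were dim, and without dim genes the median was 0.10 for class I and 1.03 for class II. Over all 42 members the groups were apart upwards for 4 and downwards for 2, where 4.71% and 4.36% of all genes were. For each of these 6 members a two-sided exact permutation test gave p = 0.00794, the smallest that 5 against 5 livers allow. Groups that lie fully apart always give this value, so that it restates the separation and adds no support.

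**Figure D2:**
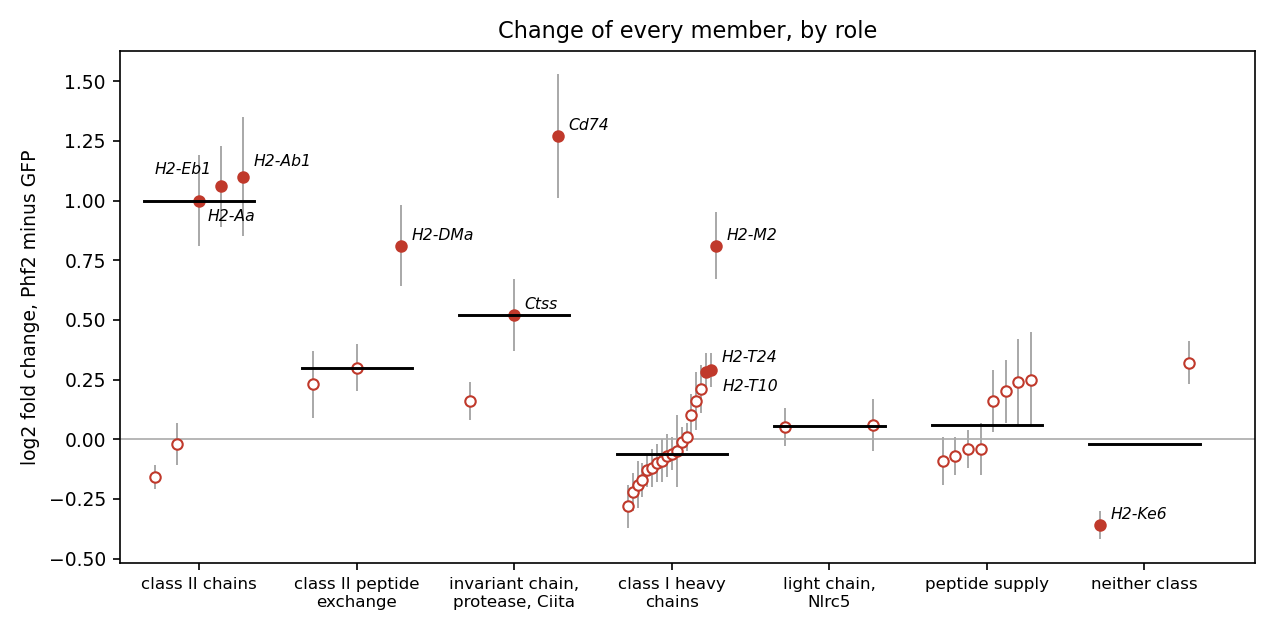
Log2 difference between Phf2 and GFP livers (y axis, points with SE) for each of the 42 members, grouped by role along the x axis, with black bars at each role's median. Filled points had an adjusted p under 0.05; the class II chains have a median of 1.00 and the class I peptide supply genes one of 0.06.

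B2m, the light chain shared by class I molecules, measured 12.30, 11.98, 12.24, 12.28 and 12.39 in GFP livers and 12.27, 12.29, 12.31, 12.17 and 12.42 in Phf2 livers. The groups covered nearly the same range, and the difference was 0.05 (SE 0.08, limma adjusted p = 0.759). Nlrc5, the class I transactivator, measured 8.06, 8.47, 8.20, 8.34 and 7.90 in GFP livers and 8.32, 8.34, 8.08, 8.13 and 8.42 in Phf2 livers. These too overlapped throughout, with a difference of 0.06 (SE 0.11, limma adjusted p = 0.792). Nlrc5 had 19 features on the array, of which 0 were called over all features (differences of -0.18 to 0.40, lowest adjusted p 0.209) and 1 had an unadjusted p under 0.05.

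The 8 genes of peptide supply cut, trim, transport or load the peptides of class I. They comprise the immunoproteasome subunits Psmb8, Psmb9 and Psmb10, the transporter chains Tap1 and Tap2, the loading factors Tapbp and Tapbpl, and the trimming peptidase Erap1. Of these 8, 0 were called by limma or by the methods' t-test and 0 had an unadjusted p under 0.05, with differences between -0.09 and 0.25. Psmb9 measured 8.96, 9.62, 10.34, 9.17 and 9.28 in GFP livers and 9.80, 9.66, 9.68, 9.66 and 9.79 in Phf2 livers. GFP 3 alone lay above a narrow Phf2 group and all other GFP livers lay below it, and the difference was 0.25 (SE 0.20, limma adjusted p = 0.555). Tap1 showed the same layout, with 5.23, 5.68, 6.52, 5.70 and 5.72 in GFP livers and 6.00, 6.02, 6.08, 5.92 and 6.02 in Phf2 livers. Its difference was 0.24 (SE 0.18, limma adjusted p = 0.496). GFP 3 was the highest GFP array for 7 of the 8 genes. Without it Psmb9 (0.46, limma adjusted p = 0.0235) and Tap1 (0.43, limma adjusted p = 0.0196) were called higher. With GFP 1 left out too, Tap1 was called (0.31, limma adjusted p = 0.0212) and Psmb9 was not.

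**Figure D3:**
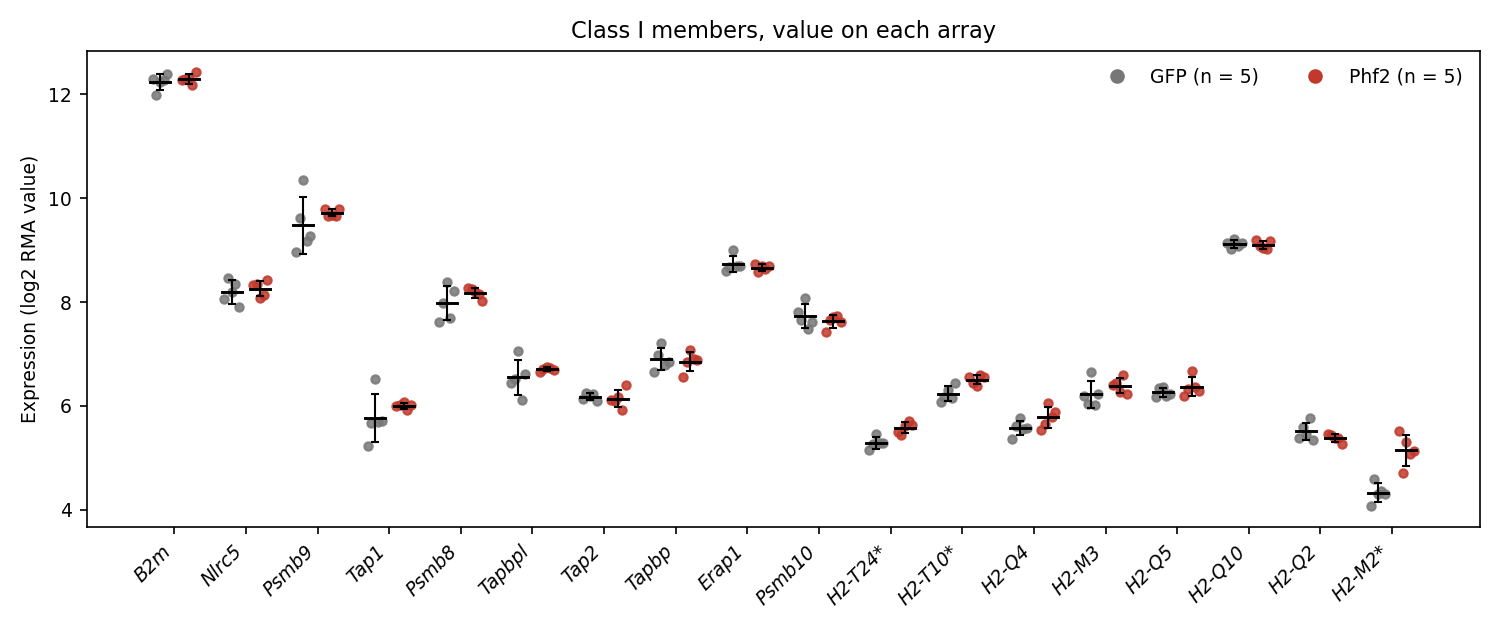
Expression of 18 class I members (log2 value, y axis) on each array, with 5 GFP livers in grey, 5 Phf2 livers in red and bars at the mean and SD. The members shown are those that were not dim, with H2-M2 added; asterisks mark H2-T24, H2-T10 and H2-M2, and for Psmb9 and Tap1 a single GFP liver, at 10.34 and 6.52, lies above all others.

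The remaining 19 class I members were heavy chains. No feature carried the symbol of the classical chains H2-K1 or H2-D1 alone, so these were not analysed singly. Features that they share are given below. Of the 12 genes of the M region, 11 were dim. H2-M2, a class I-like heavy chain, was called higher and measured 4.08, 4.60, 4.31, 4.36 and 4.30 in GFP livers and 5.51, 4.71, 5.30, 5.07 and 5.13 in Phf2 livers. All Phf2 livers were above all GFP livers, although the gene was dim, and the difference was 0.81 (SE 0.14, 1.76-fold, limma adjusted p = 0.00247), which passed in 10 of 10 fits without 1 array. The other dim M region members had differences from -0.28 to 0.01, and H2-Bl, a further dim heavy chain, had one of -0.09. The largest falls in value among all heavy chains were those of H2-M10.4 and H2-M5, neither of which passed. H2-M10.4, of a family known from vomeronasal neurons, measured 4.08, 4.00, 4.31, 4.45 and 4.06 in GFP livers and 3.82, 4.08, 3.81, 3.95 and 3.81 in Phf2 livers (difference -0.28, SE 0.09, limma adjusted p = 0.0862). H2-M5 measured 4.72, 4.86, 4.52, 4.75 and 4.46 in GFP livers and 4.50, 4.35, 4.52, 4.33 and 4.53 in Phf2 livers (-0.22, SE 0.08, limma adjusted p = 0.147). In both genes the groups overlapped. The 1 M region gene that was not dim was H2-M3, which presents formylated bacterial peptides, with a difference of 0.16 (SE 0.12, limma adjusted p = 0.499).

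Of the 6 heavy chains of the Q and T regions, 2 were called higher and 0 lower, beside 5.43% and 4.24% of all genes. H2-T24 measured 5.16, 5.26, 5.46, 5.29 and 5.28 in GFP livers and 5.49, 5.45, 5.61, 5.71 and 5.64 in Phf2 livers. Its groups met at GFP 3, and the difference was 0.29 (SE 0.07, 1.22-fold, limma adjusted p = 0.0260). H2-T10, a transcribed pseudogene in the RefSeq annotation, measured 6.08, 6.17, 6.30, 6.16 and 6.45 in GFP livers and 6.55, 6.45, 6.39, 6.59 and 6.56 in Phf2 livers. It overlapped through GFP 5, and the difference was 0.28 (SE 0.08, 1.21-fold, limma adjusted p = 0.0417). Each of these 2 was past the threshold in 3 of 10 fits without 1 array (highest adjusted p 0.0743 for H2-T24 and 0.108 for H2-T10). H2-Q10, which hepatocytes secrete, had a difference of -0.01 (SE 0.06, limma adjusted p = 0.933). H2-Q4, H2-Q5 and H2-Q2 were not called either, with differences of 0.21, 0.10 and -0.12. Near-identical sequence among heavy chains can let a feature read more than 1 gene, so that single heavy chains are uncertain.

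A further 8 features of the H2 genes carried several symbols, so that none can be read as a single gene. Over all 35556 features, 3 of them were called higher and 0 lower, with differences from -0.20 to 0.81 and a median of 0.33. In that fit 2.74% of all features were called higher and 2.04% lower. Feature 10444236, shared by the class II genes H2-DMb1 and H2-DMb2, had the largest difference, 0.81 (SE 0.18, 1.76-fold, limma adjusted p = 0.0267). The other 2 called by limma carried class I symbols. Feature 10444788, shared by H2-Q1 and H2-Bl, had a difference of 0.57 (SE 0.11, limma adjusted p = 0.0163). Feature 10444780, whose symbols include the classical H2-K1 and H2-D1, had one of 0.35 (SE 0.09, limma adjusted p = 0.0486). The brightest of the 8, feature 10450075, carries H2-K1 and H2-D1 as well and was not called. Its difference was 0.03 (SE 0.06, limma adjusted p = 0.843). Feature 10450694, shared by H2-T9, H2-T22 and H2-T10, was not called, with 0.31 (SE 0.11, limma adjusted p = 0.168). The feature of H2-T10 alone, called among genes, was not called over all features either (limma adjusted p = 0.076).

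Neither member outside the classes encodes a presenting molecule. H2-Ke6 lies within the complex and encodes a hydroxysteroid dehydrogenase. It was the 1 member called lower, and it measured 8.48, 8.37, 8.32, 8.41 and 8.42 in GFP livers and 8.12, 8.10, 8.06, 7.97 and 7.94 in Phf2 livers. The groups were apart, with a difference of -0.36 (SE 0.06, limma adjusted p = 0.00237). H2-K2, a transcribed pseudogene related to class I, had a difference of 0.32 (SE 0.09, limma adjusted p = 0.0501) and lay on the threshold. It was called with an intensity trend (adjusted p 0.0488), without dim genes (0.0343), with the mean of a gene's features (0.0498) and without Phf2 1 (0.00968). Roles followed the symbols, which left H2-K2 outside class I, whereas H2-T10, H2-Q5 and H2-Bl, transcribed pseudogenes too, were counted in it.

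Averaged over their members, the classes parted array by array. The mean over the 11 class II members was 5.97, 6.30, 6.72, 6.32 and 6.38 in GFP livers and 6.75, 7.00, 6.98, 7.07 and 6.73 in Phf2 livers. The groups did not overlap, but GFP 3, at 6.72, came close to the lowest Phf2 liver, at 6.73. The mean over the 29 class I members ran from 5.78 to 6.04 in GFP and from 5.89 to 5.97 in Phf2 livers, and GFP 3 was the highest of all 10 arrays. The class II mean minus the class I mean was 0.43 ± 0.18 (SD, n = 5) in GFP and 0.97 ± 0.18 (n = 5) in Phf2 livers, a difference of 0.53 for which no test was run, since the members were chosen with results known.

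**Figure D4:**
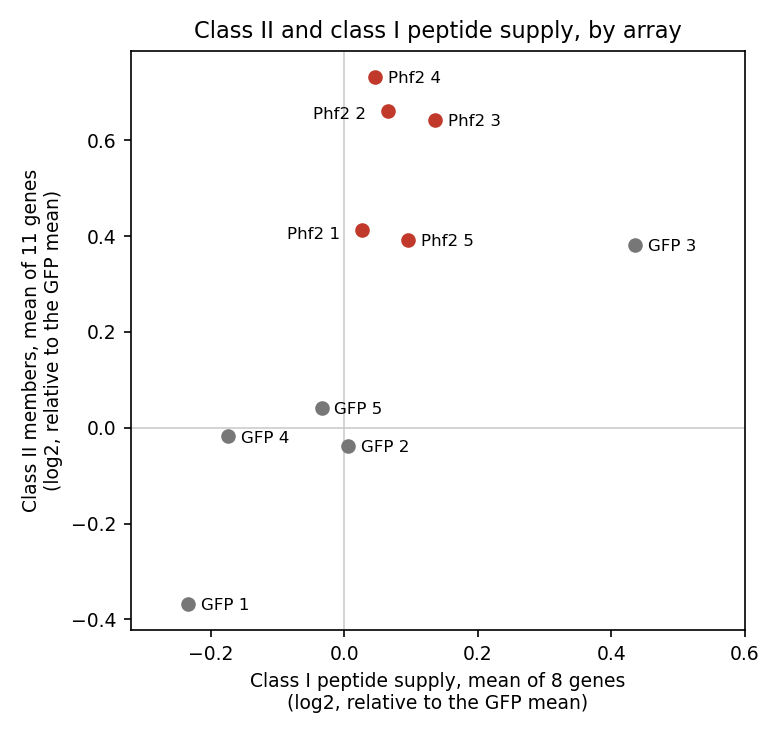
Mean of the 11 class II members (y axis) against the mean of the 8 class I peptide supply genes (x axis) on each of the 10 arrays, both as log2 difference from the mean of the GFP arrays (GFP in grey, Phf2 in red). GFP 3 lies farthest to the right, with a peptide supply mean of 7.85 where the Phf2 livers had 7.44 to 7.55, while the Phf2 livers lie higher on the class II axis.

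The other genes of both pathways were read from the same fit, as were the lists that follow. For the counts of each list, 5.43% of all genes were called higher and 4.24% lower. Of 19 further genes of the class II pathway, 4 were called higher and 2 lower, with a median of 0.06. The methods' t-test called 4 of the 19, counting both directions. Cd63, a tetraspanin of late endosomes, was higher by 2.09 (SE 0.18, 4.25-fold, limma adjusted p = 2.54e-05), and Ifi30, a thiol reductase that opens disulfides of endocytosed proteins, by 0.77 (SE 0.20, 1.70-fold, limma adjusted p = 0.0284). Ifi30 was called in 3 of 10 fits without 1 array (highest adjusted p 0.0731). The asparaginyl endopeptidase Lgmn (0.51, SE 0.12) and cathepsin D, Ctsd (0.48, SE 0.09), were the others called higher. Lower were cathepsin H, Ctsh, with -0.46 (SE 0.07, limma adjusted p = 0.00162), and Sppl2a, a membrane protease that clears the invariant chain stump, with -0.37 (SE 0.07, limma adjusted p = 0.00485). Cd63, Lgmn, Ctsd and Ctsh serve lysosomes and endosomes at large, not antigen presentation alone. The factors that bind class II promoters beside Ciita were not called, with Rfx5 at 0.02, Rfxap at -0.16, Rfxank at -0.16, Nfya at 0.19, Nfyb at -0.07, Nfyc at 0.10 and Creb1 at 0.03. Of 18 further genes listed for the class I pathway, 0 were called higher and 1 lower, with a median of 0.03. The 1 called was Sppl2a, which stands in both lists and whose role named here, on the invariant chain, belongs to class II. The other 17 were not called.

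Outside the complex, 10 MHC-like molecules were measured, of which 1 was called higher and 0 lower. It was Raet1d, a stress-induced ligand of the NK cell receptor NKG2D. Raet1d measured 4.94, 6.49, 8.52, 7.88 and 7.42 in GFP livers and 9.34, 9.22, 8.99, 9.19 and 9.20 in Phf2 livers. The Phf2 livers lay close together above GFP livers that were spread widely, with GFP 1 lowest and GFP 3 highest, and the difference was 2.14 (SE 0.51, 4.40-fold, limma adjusted p = 0.0185). It was called without GFP 1 (1.61, adjusted p 0.00809), without GFP 3 (2.51, adjusted p 0.00576) and without both (1.93, adjusted p 0.00165), but not without GFP 2 (2.00, adjusted p 0.0512). The methods' t-test called 0 of these 10 genes.

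Markers of cells that carry class II molecules moved unevenly. Of 13 dendritic cell markers 8 were dim, and 2 were called higher and 0 lower, with a median of 0.16. These were the integrin Itgax (0.66, SE 0.14, limma adjusted p = 0.0102), itself dim, and the lectin Clec9a (0.52, SE 0.15, limma adjusted p = 0.0452). The methods' t-test called neither. Flt3 (0.16), Xcr1 (0.21), Zbtb46 (-0.06) and Batf3 (-0.04) were among the markers not called. Itgax was called without GFP 1 or GFP 3, whereas Clec9a, of the fits that left out 1 array, was called in those without GFP 3 or Phf2 1 alone (adjusted p 0.104 without GFP 1). The mean over the list was 4.73 to 4.88 in GFP and 4.92 to 5.05 in Phf2 livers, so that the groups were apart by a small step. Of 11 B cell markers 8 were dim, and 0 were called by limma or by the methods' t-test. Cd22, with 0.45 (SE 0.14, limma adjusted p = 0.0626), was the 1 with an unadjusted p under 0.05, and it was called without GFP 2, Phf2 3 or Phf2 5. The B cell mean was 4.48 to 4.63 in GFP and 4.52 to 5.06 in Phf2 livers, and Phf2 4, at 5.06, was also the liver with the highest H2-Ob.

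Macrophage and Kupffer cell markers went both ways, with 5 of 15 called higher and 3 lower. Without GFP 1 these counts were 4 higher and 4 lower, without GFP 3 6 and 2, and without both 5 and 2. The methods' t-test called 4 of the 15, counting both directions. Gpnmb, a lysosomal glycoprotein of lipid-laden macrophages, was higher by 1.91 (SE 0.22, limma adjusted p = 0.000167), and the pore-forming protein Mpeg1 by 0.93 (SE 0.19, limma adjusted p = 0.00848). The Kupffer cell receptors Timd4 (-1.59, SE 0.19, limma adjusted p = 0.000252) and Clec4f (-0.54, SE 0.11, limma adjusted p = 0.00617) were lower. The mean over the list overlapped between groups, with 6.73 to 7.24 in GFP and 6.90 to 7.31 in Phf2 livers. Of 10 markers of sinusoidal endothelium 1 was called higher and 0 lower, Lyve1 with 0.51 (SE 0.12, limma adjusted p = 0.0211), and the median was -0.05. The methods' t-test called 0 of the 10. Lyve1 was not called without GFP 1 (adjusted p 0.0502), Phf2 2 (0.0585), Phf2 3 (0.0518) or Phf2 4 (0.0604).

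Of 15 T cell and NK cell markers, 8 were called higher and 0 lower, with a median of 0.64. Ccl5, a chemokine of activated T cells, was higher by 1.94 (SE 0.25, 3.83-fold, limma adjusted p = 0.000392), and Cd3g, a chain of the T cell receptor complex, by 1.5 (SE 0.27, 2.83-fold, limma adjusted p = 0.00393). Of the defining markers, Cd3e, Cd3g, Cd3d, Cd8a and Cd8b1 were among those called, whereas Cd4 (0.07, SE 0.09) and Ncr1 (-0.08, SE 0.10) were not. Cd3d (limma adjusted p = 0.0498) and Cd8b1 (0.0439) were dim. Neither was called without GFP 1 (0.0876 and 0.0746) or without GFP 3 (0.0795 and 0.079). Gzma (1.24, SE 0.16, limma adjusted p = 0.000454) and Nkg7 (1.08, SE 0.21, 0.00677) were called too, and Klrb1c (-0.08), Gzmb (0.10) and Prf1 (0.20) were not. The mean over the list was 4.87 to 5.14 in GFP and 5.43 to 6.03 in Phf2 livers, and 7 of the 15 were dim. Between 6 and 9 of the 15 were called when 1 array was left out, and 5 without both GFP 1 and GFP 3. The methods' t-test called 6 of the 15. Hepatocyte markers moved the other way, with 4 of 11 called lower, among them Tat (-0.83, SE 0.23, limma adjusted p = 0.0407) and Cps1 (-0.57, SE 0.15, limma adjusted p = 0.0320). That count was 4 without Phf2 1, 5 without Phf2 5 and 0 or 1 without any other single array. The methods' t-test called 2 of the 11. The part of these cell type markers in the class II result was not tested.

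Interferon gamma is the classical inducer of class II and of the immunoproteasome. Of 20 genes of its response, 0 were called by limma or by the methods' t-test and 5 had an unadjusted p under 0.05, all higher, with a median of 0.23. Ifngr2, a chain of its receptor, had the smallest p of the list, with a difference of 0.45 (SE 0.15, limma adjusted p = 0.0954). The mean over the list was 6.39, 6.71, 7.45, 6.65 and 6.72 in GFP livers and 6.99, 7.06, 7.26, 7.13 and 6.98 in Phf2 livers. GFP 3 was the highest of all 10 arrays and GFP 1 the lowest, and the other 3 GFP livers lay below every Phf2 liver. Without GFP 3, 8 of the 20 were called higher and 0 lower, with a median of 0.32, and with GFP 1 left out too 7 were. Among them were Cxcl9 (1.47, SE 0.23, adjusted p 0.00219) and Cxcl10 (1.54, SE 0.29, adjusted p 0.00654), chemokines that draw T cells, which had adjusted p of 0.124 and 0.173 with all arrays. Leaving out any other single array gave 0 or 1. The count for this list thus depends on GFP 3. Ifng itself was dim, at 4.83 ± 0.12 (SD, n = 5) in GFP and 4.83 ± 0.13 (n = 5) in Phf2 livers (limma adjusted p = 0.985). Of 19 genes of the type I interferon response, 3 were called higher and 0 lower, with a median of 0.22. Without GFP 3 the count was 6, without both GFP 1 and GFP 3 it was 4, and without any other single array 2 or 3. The methods' t-test called 2 of the 19. Usp18, which removes Isg15 from proteins, was higher by 1.47 (SE 0.16, 2.77-fold, limma adjusted p = 0.000128), and the RNA sensor Oas1a by 0.83 (SE 0.13, 1.77-fold, limma adjusted p = 0.00197). The part of either response in the class II result was not tested.

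**Figure D5:**
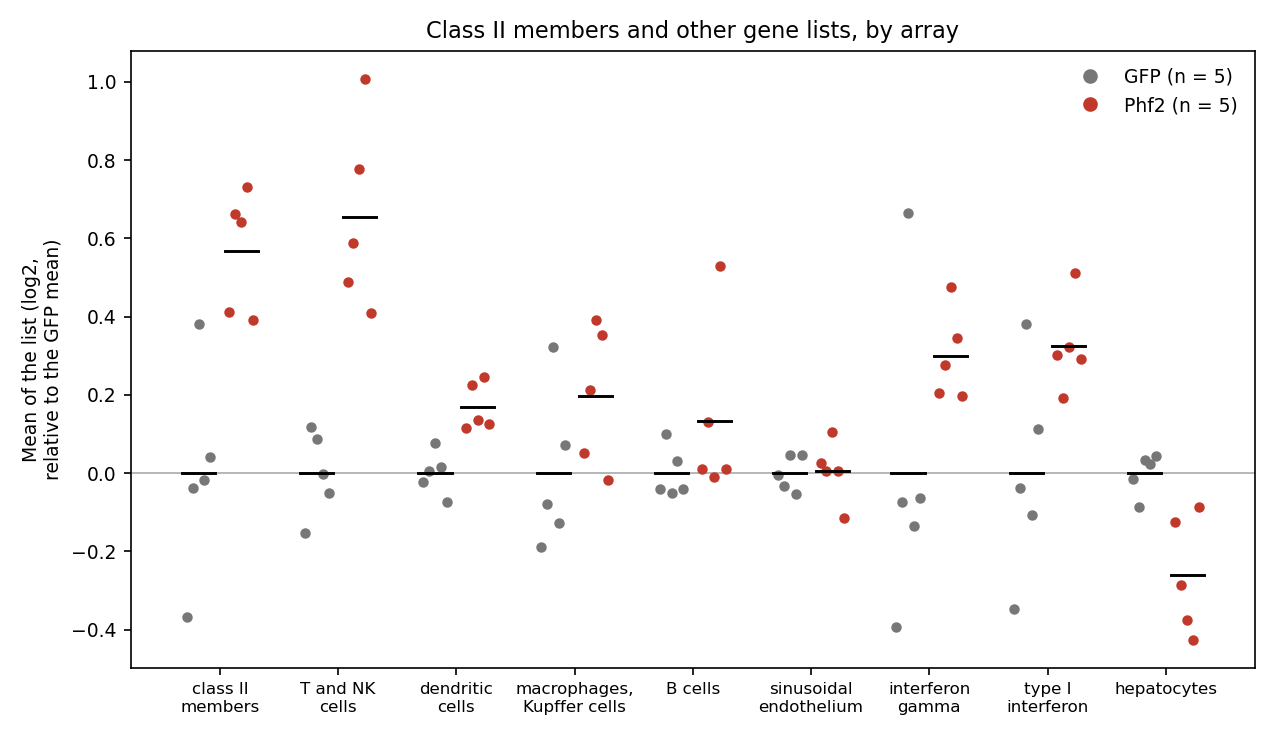
Mean of the class II members and of 8 other gene lists on each array (y axis, log2 difference from the mean of the GFP arrays), with 5 GFP livers in grey, 5 Phf2 livers in red and a black bar at each group mean. The groups are apart for class II, for T and NK cells and for dendritic cells upwards, and overlap for B cells, macrophages, endothelium and both interferon lists, where GFP 3 (7.45 for interferon gamma) is the highest GFP liver.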

How the data were processed

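Liver RNA of 5 Phf2 and 5 GFP mice was measured on 1 array per mouse, and samples were grouped by the condition and number in their titles. The authors normalized the arrays with RMA (background correction, equal distributions and a summary per feature) and deposited log2 values. RMA and Partek stand in the submitters' processing notes without versions. RMA brings arrays to a common distribution, so that a shift of all genes together would not be seen. The methods name a human array and an RNeasy kit, the labels another kit, and the features are those of a mouse array. The value table had 0 columns that belong to no sample.

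Of 35556 features, 21789 had 1 symbol, 1621 several and 12146 none, and the latter 2 kinds were not tested as genes. Where several features named a gene (999 genes), the brightest on average was used, and all 42 members matched the RefSeq table by gene number. Differences (Phf2 minus GFP) were tested in limma 3.58.1 under R 4.3.3 by lmFit and eBayes without covariates, and p-values of the 19938 genes were adjusted together by Benjamini-Hochberg, with a threshold of 0.05. For single members a two-sided exact permutation test was run as well. The pipeline was tested on simulated data.

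Values per array are given for B2m, Cd74, Ciita and Nlrc5, for classical chains, for members past the threshold and for the 3 largest rises and falls. Psmb9, Tap1 and Raet1d were added after their values were seen. Of other lists, up to 2 called genes in each direction were named, or the one with the smallest p. Lgmn, Ctsd, Ifng, Cxcl9, Cxcl10, further T cell, NK cell and dendritic cell markers and the promoter-binding factors were added. Members and lists were chosen with earlier results of these data known. The number of arrays limits the precision. Alternatives were array weights, the methods' t-test, a robust prior that follows the intensity, removal of dim genes, quantile normalization, median centring, all features, the mean of a gene's features, a replicate block, the study's thresholds and leaving out each array. Leaving out both GFP 1 and GFP 3 was chosen after seeing the data. The study's ChIP-seq and metabolomic data were not used here.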

Additional observations from a re-analysis of the deposited data

Results flagged for a closer look

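Of 40 groups of 5 arrays examined for a single far value, where chance gives about 5%, 1 stood out. H2-Eb2, a dim class II beta chain gene, measured 4.83 in Phf2 replicate 2 against 4.38 to 4.45 in the other Phf2 livers, with a gap of 0.847 of the group's range where the critical value is 0.71. The gene was not called, and the cause was not tested.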

How the results depend on the processing

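By the methods' t-test, 694 genes were called higher, and of class II members 2 were called higher and 1 lower. Over all features 1 class I member was called higher. At the study's thresholds, an unadjusted p of 0.05 (here from limma) and 1.5-fold, 475 genes passed higher, 231 lower and 1 class I member higher. Of class II members, Cd74, H2-Ab1, H2-Eb1, H2-Aa and H2-DMa passed higher, and Ctss, at 1.43-fold, did not. Without dim genes the median was 0.10 for class I and 1.03 for class II members, and the difference between the class means was 0.86, since the 5 class II members dropped were those not called. Without both GFP 1 and GFP 3, 719 genes were called higher and 536 lower, and the class I median was 0.02. Leaving out each array in turn gave 727 to 1220 genes higher and 571 to 912 lower, 1 to 5 class I and 5 to 6 class II members higher, 0 of either lower, a class I median from -0.05 to 0.01, a class II median from 0.40 to 0.63 and a difference between class means of 0.47 to 0.59. The 5 class I members came without GFP 3 (Psmb9 and Tap1 added), the 3 without both GFP 1 and GFP 3 were H2-M2, H2-T24 and Tap1, and 1 remained without GFP 1, GFP 2, GFP 4, Phf2 4 or Phf2 5. Over all settings the sign turned for 9 of the 42 members, 0 of them called. H2-M1, H2-M10.3, H2-Q10, Psmb10, Tap2 and Tapbp lay near 0 and turned as well as the 3 given with values per array. H2-Eb2 was at 0.02 with array weights, and leaving out 1 array took it from -0.1 (Phf2 2) to 0.01 (Phf2 3), with values above 0 also without GFP 2 (0.0079), Phf2 4 (0.0083) or Phf2 5 (0.0042). B2m ran from -0.0095 without GFP 2 to 0.09 without GFP 5, and Nlrc5 from -0.008 without GFP 5 to 0.13 without GFP 2. H2-T24 was lost over all features (adjusted p 0.0508). H2-T10 was lost with the t-test, the intensity trend, quantile normalization, median centring, all features and both GFP arrays left out, and Ctss with the first 2 of these, median centring and all features. In a fit with a replicate block (the number in the labels), 6 class II members were called and H2-T10 was not (adjusted p 0.086). Same-numbered arrays did not deviate together (correlations from -0.2911 to -0.0421), and no array matched its own number best. No pairing by number was thus seen, although such a check cannot exclude one. No setting moved the median of all genes beyond -0.034. The causes were not tested.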
